A study of Mus musculus with 6 samples.

Results

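The snoRNA host genes described here are 8 long noncoding genes of the mouse that carry small nucleolar RNAs (snoRNAs) in their introns, namely Gas5, Snhg1, Snhg3, Snhg4, Snhg5, Snhg6, Snhg8 and Snhg12. They were taken from a named list and not from measured values, and 6 of the 8 had a row among the 17068 genes of the deposited count table. Snhg3 and Snhg4 were not analysed here. RNA was sequenced from 6 samples of lateral cortex, all labelled female, c57/bl6 and embryonic day 12.5. The 4 controls were Cre-negative, and by their labels controls 1, 2 and 4 were Foxp1 fl/+ whereas control 3 was Foxp1 fl/fl. The 2 other samples were Foxp1 fl/fl;Emx1Cre and are called Foxp1cKO. Emx1Cre is active in the progenitors of the dorsal telencephalon and their descendants, so vessels, blood and microglia in the same tissue keep the floxed allele. The question asked of these genes was whether their RNA differed between Foxp1cKO and control cortex.

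A snoRNA host gene is transcribed as one long RNA, and its introns are trimmed to snoRNAs once they are spliced out. Box C/D snoRNAs guide 2′-O-methylation and box H/ACA snoRNAs guide pseudouridylation of ribosomal RNA. The spliced exons that remain encode no long protein. In Gas5 and several relatives they are translated briefly and then destroyed by nonsense-mediated decay, and they accumulate when growth or translation slows. Many such hosts begin with a 5′ terminal oligopyrimidine (TOP) tract, the signature that ribosomal protein genes also carry at their start. The counts analysed here are per gene over annotated exons. In GENCODE M21 these exons overlap snoRNA sites in Gas5, Snhg1, Snhg5, Snhg8 and Snhg12. The merged exons of Snhg1 (2969 bases) and Snhg8 (853 bases) fill the whole gene. The counts can therefore include host RNA that keeps introns as well as the spliced RNA left after decay. They do not measure the snoRNAs cut from it.

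The snoRNAs that these hosts carry are shown first, because they are what defines the group. In GRCm38 (mm10), GENCODE M21 places 9 separate snoRNA loci inside Gas5, 8 inside Snhg1, 4 inside Snhg12, 2 inside Snhg5 and 1 each inside Snhg6 and Snhg8. None of these snoRNA genes was itself among the genes analysed here. One snoRNA per host is printed below from the GENCODE transcripts, 5′ to 3′, with the C box (TGATGA) and the D box (CTGA) in capitals for box C/D members and the ACA trinucleotide near the end in capitals for the box H/ACA member.
Snord47: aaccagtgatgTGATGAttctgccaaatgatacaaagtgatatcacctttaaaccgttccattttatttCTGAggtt
Gm25855: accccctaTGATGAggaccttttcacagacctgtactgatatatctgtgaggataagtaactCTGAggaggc
Snord50a: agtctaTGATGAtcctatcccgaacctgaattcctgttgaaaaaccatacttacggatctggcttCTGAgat
Snord87: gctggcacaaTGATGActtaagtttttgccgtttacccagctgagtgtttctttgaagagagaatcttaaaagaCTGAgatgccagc
Snora24: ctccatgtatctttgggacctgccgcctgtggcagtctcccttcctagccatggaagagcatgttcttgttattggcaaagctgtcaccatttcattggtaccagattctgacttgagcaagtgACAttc
Snord99: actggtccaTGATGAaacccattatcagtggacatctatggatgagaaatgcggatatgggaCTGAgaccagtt

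Snord47 lies in Gas5 at chr1:161038082-161038158 on the plus strand, and Gm25855 lies in Snhg1 at chr19:8723993-8724064, also on the plus strand. Snord50a belongs to Snhg5 (chr9:88521529-88521600, minus strand), Snord87 to Snhg6 (chr1:9942463-9942549, minus strand) and Snora24 to Snhg8 (chr3:123507937-123508066, minus strand). Snord99 is at chr4:132310691-132310764 on the plus strand in Snhg12, a host that otherwise carries box H/ACA snoRNAs such as Snora16a and Snora61.

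The RefSeq start sites of the hosts were inspected next, a feature that the choice of genes did not use. RefSeq start windows were found for 5 of the 6 genes (GRCm38.p6), and Snhg6 had no entry. The 30 bases from 10 before the annotated start onwards are printed with the longest run of C and T that begins within 10 bases of the start in capitals, and of the 2 RefSeq starts of Gas5 the downstream one is shown, chosen because its run is the longer.
Gas5: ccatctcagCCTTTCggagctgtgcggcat
Snhg1: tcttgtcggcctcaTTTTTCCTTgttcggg
Snhg5: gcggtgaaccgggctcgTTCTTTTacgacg
Snhg8: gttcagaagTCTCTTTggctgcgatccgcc
Snhg12: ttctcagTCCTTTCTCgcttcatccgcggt

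These windows are at chr1:161035156-161035185 (plus), chr19:8723477-8723506 (plus), chr9:88522878-88522907 (minus), chr3:123508317-123508346 (minus) and chr4:132308668-132308697 (plus), in the order printed. A pyrimidine run of at least 5 bases was present in 5 of 5 genes, against 38.0% of 32851 RefSeq start windows and 54.4% of 68 windows of ribosomal protein genes. The host count rests on that choice of start for Gas5, whereas the other shares count every window. Relative to the annotated start, the runs began at -1 in Gas5 and Snhg8, -3 in Snhg12, 4 in Snhg1 and 7 in Snhg5. A run counted in this way lies near the start and does not by itself show a TOP tract. A run of at least 7 bases was present in 4 of 5, all but Gas5, against 14.4% of all windows and 38.2% of the ribosomal protein windows. Counted from the annotated start onwards, an unbroken run of at least 5 with a C at the start base was found in 2 of 5. These were Gas5 and Snhg8, against 2.51% of all windows and 20.6% of the ribosomal protein windows. That count ignores pyrimidines before the start, and in both genes the whole run began at -1. A run of pyrimidines is a description of these letters and depends on where RefSeq places the start, and the upstream start of Gas5 had no run longer than 3.

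The libraries held 50076008 to 78346979 counts on genes, so that 3 counts correspond to 0.0381 to 0.0596 counts per 1000000 counts (CPM), and the hosts lay far above this floor with 476 to 9145 counts per library. This floor covers counting error only. The targeted gene, Foxp1, had 59.7, 60.8, 71.2 and 79.1 CPM in the controls and 83.2 and 76.8 CPM in the Foxp1cKO libraries, so the libraries labelled Foxp1cKO did not have less Foxp1 RNA, and Foxp1cKO denotes that label throughout. A count over the whole gene includes exons outside the floxed part, so it does not check the deletion itself. The dorsal telencephalon markers Emx1, Emx2, Pax6 and Lhx2 were all detected in every library, and their summed level was 539 to 1116 CPM in the controls and 821 to 890.3 CPM in Foxp1cKO. Of the neuron markers 6 of 7 had a row, with sums of 2581 to 4678.5 CPM in the controls and 3358 to 3487 CPM in Foxp1cKO, and the lowest sum was that of control 4. The 8 ventral telencephalon markers summed to 232 to 824 CPM in the controls and 384 to 515 CPM in Foxp1cKO, with the highest sum in control 3. For 7 red cell markers the sums were 1009.7 to 2870.2 CPM in the controls and 3039.6 and 3367 CPM in Foxp1cKO. Controls 3 and 4 stood at opposite ends of the dorsal telencephalon and neuron sums, and the part of this in the results below was not tested.

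Gas5, named for its accumulation in growth-arrested cells and known as a decoy of the glucocorticoid receptor, had the highest level per length of the hosts. Gas5 (ENSMUSG00000053332.13, chr1:161034422-161038539, plus strand) had 74.1, 111, 86.7 and 116 CPM in controls 1 to 4 and 97.8 and 98.1 CPM in Foxp1cKO 1 and 2. Both Foxp1cKO values fell in the middle of the control range, above controls 1 and 3 and below controls 2 and 4. The log2 fold change of Gas5 was 0.013 (standard error, SE, 0.183, adjusted p = 0.984, edgeR), with a 95% interval of -0.42 to 0.44, which spans folds of 0.748 to 1.36. The controls themselves differed by up to 1.57-fold for Gas5. Among 4303 genes whose mean CPM was within a factor of 2 of Gas5, 90.1% had a smaller standard deviation of log2 CPM over the controls. The direction for Gas5 was set by single libraries: without control 1 the log2 fold change was -0.11, without control 3 it was -0.051 and without Foxp1cKO 2 it was -0.0060. Zbtb37, on the opposite strand, overlaps the first 428 bases of Gas5, but no exon base of Gas5 lies in a Zbtb37 exon in GENCODE M21.

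**Figure D1:**
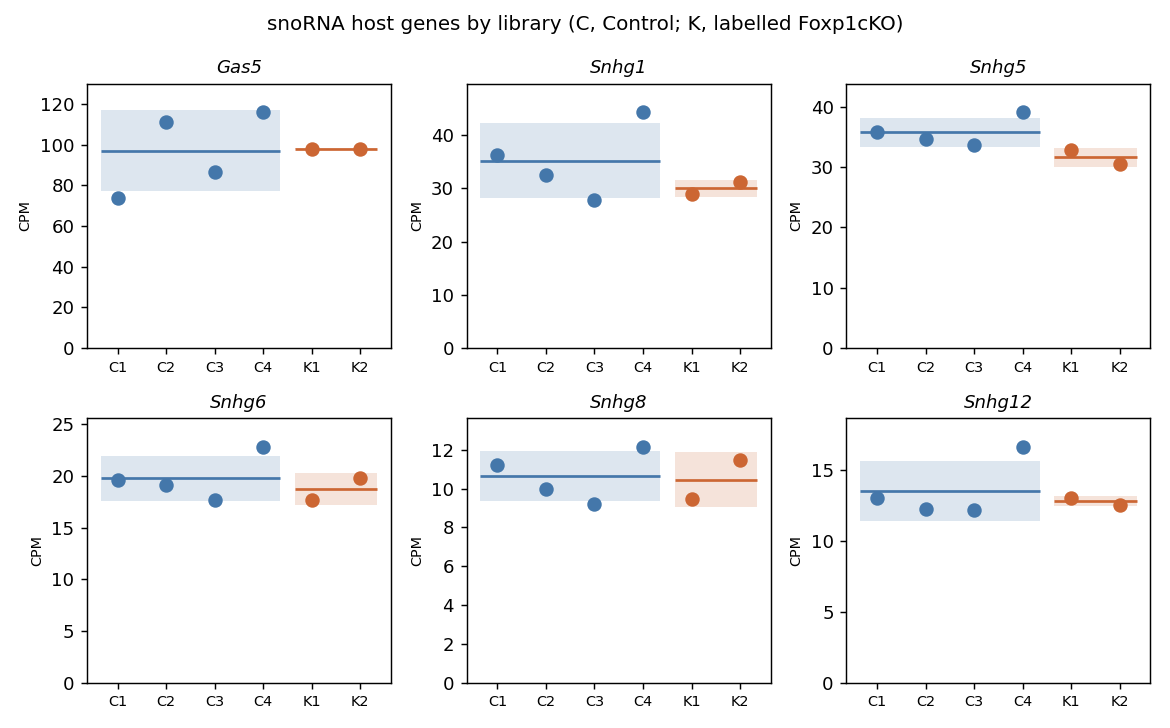
CPM (vertical axes, from 0) of each snoRNA host gene in the 4 control libraries (C1 to C4, blue) and the 2 Foxp1cKO libraries (K1 and K2, orange), with each group's mean (line) and 1 SD (band). Snhg5 is the panel in which both Foxp1cKO points, 32.7 and 30.5 CPM, lie below all controls, and in every panel C4 is the highest point.

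Snhg1, first described as the host of the snoRNA U22, and Snhg5, the host of Snord50a and Snord50b, had the most negative fold changes. Snhg1 (ENSMUSG00000108414.1, chr19:8723475-8726443, plus strand) had 36.2, 32.5, 27.8 and 44.4 CPM in the controls and 28.9 and 31.1 CPM in Foxp1cKO. The groups overlapped, since control 3 was below both Foxp1cKO libraries. The log2 fold change of Snhg1 stood at -0.23 (SE 0.179, adjusted p = 0.612, edgeR; 95% interval -0.65 to 0.19). The size of this value rested on control 4, without which it was -0.098, whereas it was -0.34 without control 3. Snhg5 (ENSMUSG00000097195.9, chr9:88521050-88522929, minus strand) had 35.8, 34.6, 33.7 and 39.1 CPM in the controls and 32.7 and 30.5 CPM in Foxp1cKO. Both Foxp1cKO libraries were below every control, as they were for 13.1% of all genes, and Snhg5 was the host with the narrowest spread over the controls (1.16-fold). The fold change of Snhg5 was -0.18 on the log2 scale (SE 0.0922, adjusted p = 0.454, edgeR; 95% interval -0.40 to 0.040), and it stayed between -0.23 and -0.13 in all 14 alternative analyses.

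Snhg6, Snhg8 and Snhg12 differed little between the group means. Snhg6, the host of Snord87 (ENSMUSG00000098234.7, chr1:9941959-9944118, minus strand), had 19.6, 19.1, 17.7 and 22.8 CPM in the controls and 17.7 and 19.8 CPM in Foxp1cKO. Its log2 fold change was -0.080 (SE 0.130, adjusted p = 0.830, edgeR; 95% interval -0.39 to 0.23). Of its 1146 exon bases, 127 (11.1%) overlap exons of Mcmdc2 on the opposite strand, and the strand setting of the counting is not given in the sources used here, so its value carries that uncertainty. Snhg8, the host of Snora24 (ENSMUSG00000104960.1, chr3:123507552-123508404, minus strand), had 11.2, 9.99, 9.21 and 12.2 CPM in the controls and 9.46 and 11.5 CPM in Foxp1cKO. The difference between the 2 Foxp1cKO libraries, 0.28 on the log2 scale, was larger than the fold change of -0.023 between groups (SE 0.164, adjusted p = 0.969, edgeR; 95% interval -0.41 to 0.36). Snhg12 (ENSMUSG00000086290.8, chr4:132308623-132311024, plus strand) had 13.0, 12.2, 12.2 and 16.6 CPM in the controls and 13.0 and 12.6 CPM in Foxp1cKO. Control 4 stood above 5 similar libraries here, and the fold change of -0.080 (SE 0.161, adjusted p = 0.867, edgeR; 95% interval -0.46 to 0.30) turned to 0.036 without it.

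Across the 6 hosts, 0 passed an adjusted p-value of 0.05, against 0.152% of all genes (26 of 17068). Likewise 0 passed with DESeq2 (2.97% of all genes) or with limma (27 of 17068 genes). At an unadjusted p under 0.05 the number was also 0, against 13.0% of all genes. In 5 of the 6 the log2 fold change was below 0, as it was for 50.7% of all genes, and the median was -0.080 beside -0.0044 over all genes. That median depended on single libraries, at 0.016 without control 4, -0.053 without Foxp1cKO 1, -0.14 without control 3 and -0.16 without Foxp1cKO 2. The groups failed to overlap in 1 host, Snhg5, against 24.6% of all genes in either direction. The 95% intervals differed in width between hosts, and each left changes on both sides of 0 that these libraries did not exclude for that host, up to 0.040 above 0 for Snhg5 and up to 0.44 for Gas5. No exact permutation test was used, since its smallest two-sided p with these group sizes is 0.133. In bulk tissue, fewer cells of a type and less RNA per cell cannot be told apart.

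**Figure D2:**
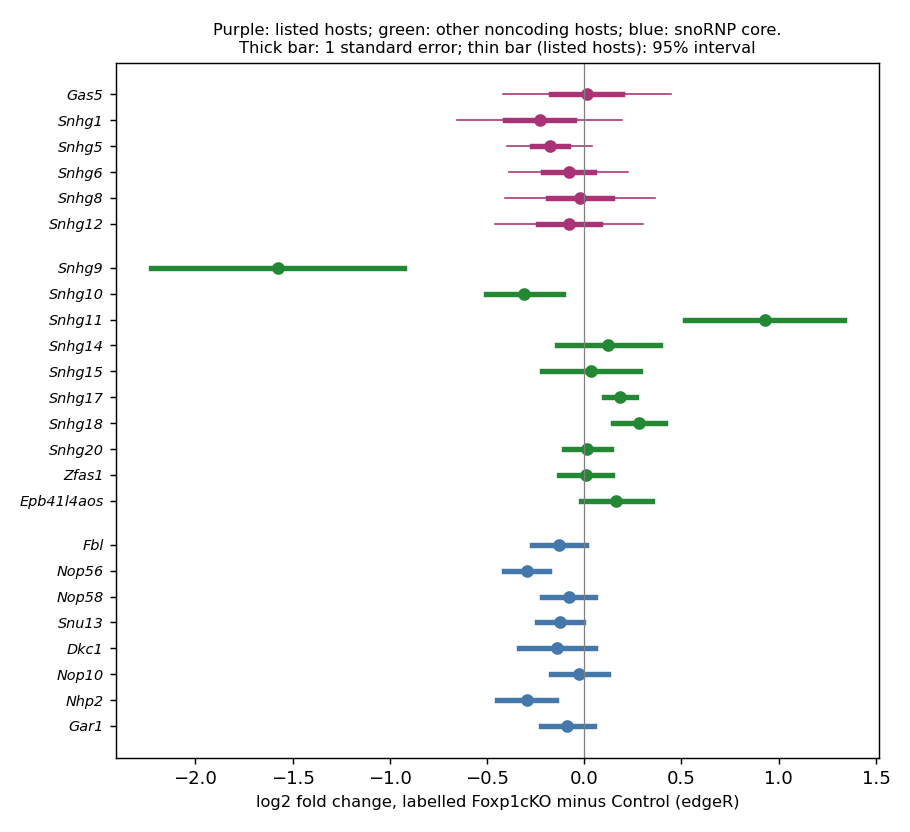
Log2 fold change, Foxp1cKO minus control (horizontal axis, edgeR), of the 6 snoRNA host genes (purple), 10 other noncoding snoRNA hosts (green) and 8 snoRNP core genes (blue), with 1 standard error (thick bars) and, for the 6 hosts, the 95% interval (thin bars). Each of the 6 purple intervals includes 0, and the green points spread from -1.58 to 0.93.

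In 5 of the 6 hosts the SD of log2 CPM over the controls was larger than the size of the log2 fold change between groups, the exception being Snhg5 (SD 0.095, log2 fold change -0.18). Control 4 was the highest library in 6 of 6 hosts, whereas it was highest for 24.5% of all genes. The mean of the 6 centred profiles (log2 CPM minus the gene's mean over 6 libraries) was 0.28 in control 4, -0.14 in control 3, -0.090 in Foxp1cKO 1 and between -0.024 and -0.00096 in the other 3. Control 4 was also highest for 8 of 8 core proteins of the snoRNPs (the particles that snoRNAs form with proteins), for 8 of 10 snoRNP assembly factors and for 34 of 76 ribosomal protein genes. Among 10 further noncoding snoRNA hosts it was highest for 3, near the share of 24.5% over all genes. All 4 dorsal telencephalon markers were likewise highest in control 4, and all 4 were lowest in control 3, which was the lowest library for 3 of the 6 hosts and 22.3% of all genes. In control 4 the neuron markers were at their lowest sum and in control 3 the ventral markers at their highest, and their part in these profiles was not tested.

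**Figure D3:**
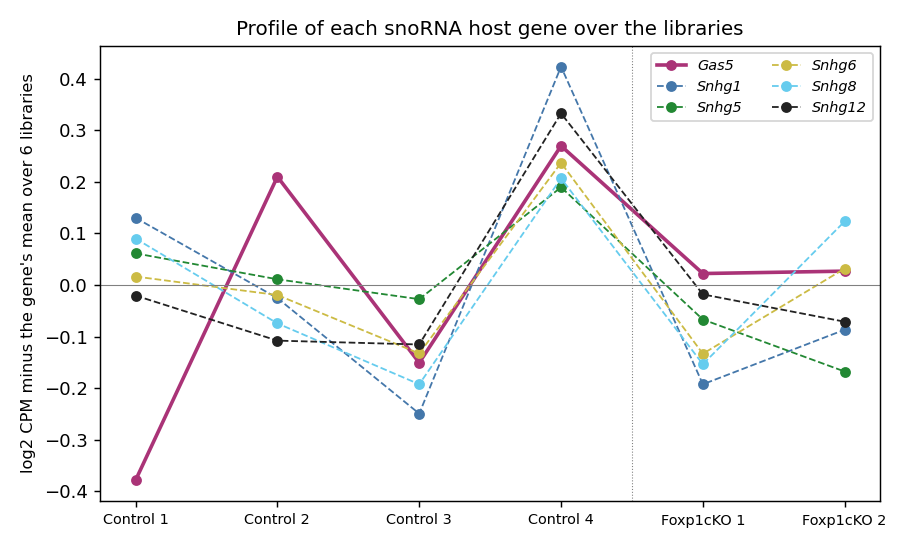
Log2 CPM of each snoRNA host gene minus its own mean over 6 libraries (vertical axis) in each library (horizontal axis, controls left of the dotted line). Lines only join the points of one gene, since libraries have no order. Gas5 (thick line) is at -0.38 in control 1 and 0.21 in control 2, away from the other 5 hosts, and all 6 peak in control 4.

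The profile of Gas5 lay apart from those of the other hosts. The root mean square difference between centred profiles was 0.198 to 0.261 in the 5 pairs that held Gas5 and 0.0602 to 0.149 in the 10 pairs that did not. Gas5 was lowest in control 1, at -0.38 from its own mean, where Snhg1, Snhg5, Snhg6 and Snhg8 were slightly above theirs. It was at 0.21 in control 2, where the other 5 lay between -0.11 and 0.011.

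By the same measure the genes nearest to the mean profile of the hosts, out of 10093 genes with a mean of at least 10 CPM, were Arf6, Zfp101, Cdca4, Zscan29 and Dnttip2, at 0.0185 to 0.0257. Arf6 encodes a small GTPase of endosomal traffic, Zfp101 and Zscan29 encode zinc finger proteins, and Dnttip2 encodes a nucleolar protein. Arf6 had 41.8, 43.0, 37.9 and 50.6 CPM in the controls and 39.5 and 42.5 CPM in Foxp1cKO. The single nearest gene was Cdk1, the mitotic kinase, for Snhg1 (0.0243) and Gar1, a core protein of box H/ACA snoRNPs, for Snhg12 (0.0191). It was Dnajc15 for Snhg5 (0.0210), Zscan29 for Snhg6 (0.0267) and Thoc6, a subunit of the mRNA export complex THO, for Snhg8 (0.0249). For Gas5 the nearest of 10098 genes was Gspt2, a translation termination factor, at 0.0910, so no gene came as near to Gas5 as others did to the remaining hosts. With 6 libraries such nearness is a description, and the genes share the depth of each library.

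Levels of different hosts were compared per length, as TPM (counts per base of exon, scaled to sum to 1000000 in each library) computed with merged exon lengths. Gas5 was highest at 111 ± 16.5 TPM (SD, n = 6), followed by Snhg5 at 85.5 ± 6.39, Snhg6 at 72.9 ± 5.89, Snhg8 at 53.3 ± 5.27, Snhg1 at 48.4 ± 8.01 and Snhg12 at 23.8 ± 2.72 TPM. Gas5 and Snhg5 overlapped, since Gas5 was above Snhg5 in 5 of 6 libraries and below it in control 1 (84.9 against 89.2 TPM). The ranges of Snhg5 and Snhg6 overlapped too, although Snhg5 was the higher in each of the 6 libraries, by 1.02 to 1.26 times. Snhg8 and Snhg1 changed places in control 4 (59.8 against 62.7 TPM) and did not differ beyond their spread. With merged lengths the steps from Snhg6 to Snhg8 and from Snhg1 to Snhg12 were clear of that spread, at 1.29 to 1.43 times and 1.80 to 2.25 times in every library. These hosts have many annotated transcripts, from 3 in Snhg8 to 25 in Gas5, so the length that applies is uncertain. With the longest transcript as length the order was the same. Snhg1 then stayed above Snhg12 in each of the 6 libraries, by 1.25 to 1.57 times. Their ranges over the libraries overlapped, with 33.1 TPM as the lowest Snhg1 value and 33.7 TPM as the highest Snhg12 value.

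**Figure D4:**
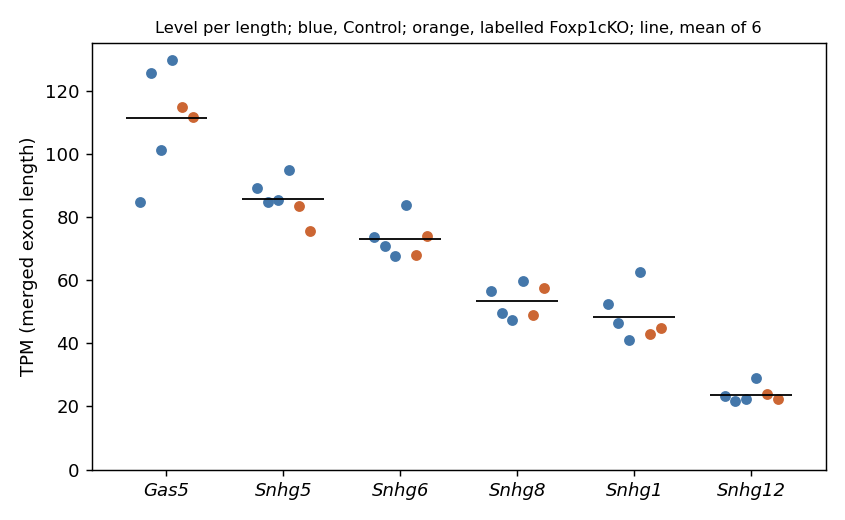
Level per length in TPM (vertical axis, from 0) of the 6 snoRNA host genes, ordered by their mean over 6 libraries (line), with controls in blue and Foxp1cKO in orange. Gas5 spreads from 84.9 to 130 TPM and Snhg12 from 21.6 to 29.0 TPM.

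Neighbouring genes were examined because hosts can share a promoter or reads with them. Slc3a2, which encodes a subunit of amino acid transporters, starts 106 bases from Snhg1 on the other strand. It had 79.8, 77.4, 70.5 and 75.3 CPM in the controls and 82.1 and 85.3 CPM in Foxp1cKO. Both Foxp1cKO values were above every control, as they were for 11.5% of all genes. The log2 fold change of Slc3a2 was 0.14 (SE 0.0773, adjusted p = 0.470, edgeR) beside -0.23 for Snhg1. Zbtb37, a zinc finger gene that starts 427 bases from the GENCODE start of Gas5, had a log2 fold change of 0.24 (SE 0.0979, adjusted p = 0.370, edgeR), and Mcmdc2, opposite Snhg6, had 0.28 (SE 0.263, adjusted p = 0.682, edgeR). Rcc1, which encodes the exchange factor of Ran and starts 81 bases from Snhg3 on the same strand, had 89.2, 77.8, 67.5 and 105 CPM in the controls and 61.2 and 66.5 CPM in Foxp1cKO. Both Foxp1cKO values of Rcc1 were below every control, as they were for 13.1% of all genes. Its log2 fold change was -0.41 (SE 0.171, adjusted p = 0.378, edgeR). None of these 4 neighbours passed the threshold.

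None of the genes for proteins that build snoRNPs passed the threshold, and most of their fold changes lay below 0. Of 8 core proteins, 8 had fold changes below 0 (50.7% of all genes did), with a median of -0.13. Control 4 was the highest library for 8 of 8 (24.5% of all genes). Their mean log2 CPM was 6.03, 5.94, 5.76 and 6.25 in controls 1 to 4 and 5.83 and 5.89 in Foxp1cKO 1 and 2. Control 3 thus lay below both Foxp1cKO libraries, and how far the direction rested on control 4 was not tested. Among these core proteins 0 passed the threshold and 1 had an unadjusted p under 0.05 (13.0% of all genes did). That one was Nop56, a core protein of box C/D snoRNPs and itself the host of snoRNAs, with 188, 166, 151 and 195 CPM in the controls and 145 and 140.3 CPM in Foxp1cKO. Its fold change was -0.30 (SE 0.116, adjusted p = 0.364, edgeR), and both Foxp1cKO libraries were below all controls, as they were for 13.1% of all genes. Nhp2, of the box H/ACA particle, had the most negative fold change, also -0.30 (SE 0.151), and Nop10 the least negative, -0.025. Fbl, the methyltransferase of the box C/D particle, was at -0.13 (SE 0.140). Among 10 assembly factors 8 were below 0, the median was -0.071, 0 passed and 2 had an unadjusted p under 0.05, beside the same shares of all genes. Control 4 was the highest library for 8 of these 10 factors. They ran from Nolc1, a nucleolar chaperone, at -0.32 (SE 0.0909) to Naf1, which assembles box H/ACA particles, at 0.40 (SE 0.182).

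Factors that act on the host RNAs were examined in the same way. Of 14 genes of nonsense-mediated decay and the exon junction complex, 10 were below 0 (50.7% of all genes were), 0 passed and 3 had an unadjusted p under 0.05 (13.0% of all genes did), with a median of -0.070. They ran from Rbm8a, a core protein of the exon junction complex, at -0.35 (SE 0.0766) to Smg9 at 0.096 (SE 0.113). Rbm8a had 98.3, 95.9, 90.9 and 100.3 CPM in the controls and 78.3 and 73.0 CPM in Foxp1cKO. Both Foxp1cKO libraries were below all controls, as they were for 13.1% of all genes. That separation did not pass the test over all genes (adjusted p = 0.242, edgeR). Of 12 genes of mTOR complex 1 and TOP mRNA regulation, 7 were below 0 and 5 above, with a median of -0.011 and 0 past the threshold. Eif4ebp1, an inhibitor of cap-dependent translation, had the largest fold change of that list, 0.81 (SE 0.356, adjusted p = 0.399, edgeR), and Mlst8, a subunit of the complex, the smallest, -0.18 (SE 0.0704).

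Other snoRNA hosts gave a background for the 6 genes. Of 13 further noncoding hosts 10 were matched, of which 8 had fold changes above 0 and 2 below (50.7% of all genes were below 0). Their median was 0.080, beside -0.0044 over all genes. Among them 0 passed the threshold and 1 had an unadjusted p under 0.05 (13.0% of all genes did). Snhg11, which is known as a neuronal host, had 14.7, 30.1, 50.4 and 24.9 CPM in the controls and 63.8 and 50.7 CPM in Foxp1cKO. Its fold change was the largest of the list, 0.93 (SE 0.409, adjusted p = 0.399, edgeR). Both Foxp1cKO values were above all controls, control 3 by the least, as they were for 11.5% of all genes. Snhg9 had the most negative value, -1.58 (SE 0.651, adjusted p = 0.373, edgeR), at only 0.151 to 0.307 CPM in the controls and with one Foxp1cKO library below the floor of 3 counts. Among 38 protein-coding hosts outside the ribosome, found from the annotation, 24 were below 0 (50.7% of all genes were), 0 passed and 9 had an unadjusted p under 0.05 (13.0% of all genes did), with a median of -0.065. They ran from Hspa8, which encodes a constitutive heat shock protein, at -0.47 (SE 0.145) to Htr2c, at 0.98 (SE 0.776), which was under 1 CPM in every library and below the floor of 3 counts in control 4. Of 23 ribosomal protein genes that host snoRNAs 19 were above 0 and 4 below, with a median of 0.11 and 0 past the threshold. Their mean log2 CPM was 8.29, 8.21, 7.94 and 8.48 in controls 1 to 4, 8.16 in Foxp1cKO 1 and 8.48 in Foxp1cKO 2. The 2 Foxp1cKO libraries thus lay on opposite sides of controls 1 and 2. Over all genes 50.7% were below 0, with a median of -0.0044. Of 76 cytosolic ribosomal protein genes in all, 56 were above 0 and 20 below, with a median of 0.061. These ran from Rps3a1 at -0.51 (SE 0.151) to Rps2 at 0.34 (SE 0.218), and all 76 had their highest value in control 4 or Foxp1cKO 2. The mean log2 CPM of the 76 was 8.12, 8.04, 7.78 and 8.28 in controls 1 to 4. It was 7.94 in Foxp1cKO 1 and 8.29 in Foxp1cKO 2, again on opposite sides of controls 1 and 2.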

How the data were processed

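Per the labels, total RNA of 6 lateral cortex samples was extracted with a miRNeasy kit and made into stranded TruSeq libraries. The authors used STAR to align the read pairs to mm10 and the union mode of HTSeq (0.9.1 in the submitters' notes) to count them per gene, and removed low-count genes. The deposited counts are whole and not normalized. The deposited VST values, made by the authors with DESeq2 (1.30.1), are on a log2-like scale. The authors' model held the litter, which the labels do not give, so the model here held the group alone. The labels do not say that each sample was a separate embryo, so p-values measure the spread between these samples, which may be partly technical.

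Counts of all 17068 genes were fitted with edgeR 4.0.16 (R 4.3.3; TMM, quasi-likelihood test, Benjamini-Hochberg adjustment, threshold 0.05). A standard error is the size of the log2 fold change divided by the square root of the F statistic, and 95% intervals use the moderated degrees of freedom. CPM uses TMM-scaled totals, and log2 CPM a prior count of 2. Symbols, exons and lengths came from GENCODE M21, not the release the authors name, in which 17047 identifiers were found by unversioned identifier. Replicates of a group differed far beyond counting error, with a mean chi-square per gene of at least 26.3. The 95% intervals cover the spread between samples, whereas the floor of 3 counts covers counting error only.

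The hosts were set by name and not by their values. They and the other lists were nevertheless chosen with earlier results of these data known, so no list was tested. Genes named are the hosts, the extremes of each list, genes past the threshold, overlapping or adjoining genes, the genes of nearest profile, and Foxp1. Nop56, Fbl, Slc3a2's values and the hosts under Other observations were given after their values were seen. Of the marker lists, 0 genes passed the threshold among 4 cortex, 7 radial glia, 4 intermediate progenitor, 6 neuron, 8 ventral, 6 endothelial, 7 red cell, 6 microglia and 8 mesenchyme genes; 1 further marker is not reported here. Alternatives were DESeq2 1.42.0, limma 3.58.1 with a trend on the VST values, other scaling, stricter low-count filters, leaving out each library, and the replicate number as a block. The fits were tested on simulated data.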

Additional observations from a re-analysis of the deposited data

How the results depend on the processing

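No host passed the threshold in any of the 14 alternatives, and the median of the 6 hosts lay between -0.16 and 0.016. In size it stayed below 0.178, the SD over the controls of the mean log2 CPM of the 6 hosts. That SD describes library means and not fold changes, so it does not show that the median was stable. Without control 4 the median turned above 0. Of 84 host values, 9 turned direction. Leaving out 1 library gave -0.1142 to 0.1106 for Gas5, -0.1815 to 0.0001793 for Snhg6, -0.1859 to 0.1082 for Snhg8 and -0.1393 to 0.03615 for Snhg12. Gas5 was -0.1142, -0.05137 and -0.006046 without control 1, control 3 and Foxp1cKO 2. Snhg8 was 0.04721 without control 4 and 0.1082 without Foxp1cKO 1, Snhg6 was 0.0001793 without Foxp1cKO 1, and Snhg12 was 0.03615 without control 4. Over all genes, 26 passed in the main analysis, 507 with DESeq2, and 2 to 96 when one library was left out (2 without control 2, 96 without control 4). A fit without a Foxp1cKO library assumes that the remaining one varies like the controls. Both groups have a replicate 1 and a replicate 2, but no label says that a number marks a shared litter. Deviations from the group means correlated across genes at -0.198 for number 1 and 0.0157 for number 2. With the replicate block 0 genes passed (3027 at an unadjusted p under 0.05) and Snhg12 was 0.01963. With the pairing crossed, a choice made after the data were seen, 1301 genes passed and Snhg12 was 0.0191. Controls 3 and 4 have no Foxp1cKO library of their number, so both block fits set Foxp1cKO against controls 1 and 2 only. The turn of Snhg12 in them cannot be told apart from the loss of control 4. With the longest transcript as length, Snhg8 was at 43.5, Snhg1 at 39.1 and Snhg12 at 27.6 TPM, since the length in the divisor changed. With 4 libraries against 2, changes inside a host's 95% interval were not excluded for that host.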

Other observations

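In 4 of the 10 further noncoding hosts the groups did not overlap, against 24.6% of all genes, and in none of them did the test over all genes pass. Besides Snhg9 and Snhg11, these were Snhg10 and Snhg17, named after their values were seen. Snhg17 had 37.7, 33.2, 34.4 and 35.7 CPM in the controls and 39.6 and 40.5 CPM in Foxp1cKO, a log2 fold change of 0.18 (SE 0.0817, adjusted p = 0.402, edgeR). Snhg10 had 1.70, 1.87, 1.73 and 1.64 CPM in the controls and 1.41 and 1.38 CPM in Foxp1cKO, a log2 fold change of -0.31 (SE 0.199, adjusted p = 0.536, edgeR). Snhg14, the long host of imprinted snoRNA clusters, was lowest in control 4 (60.9 CPM), the library in which the 6 hosts of the report were highest. It was highest in control 3 (129 CPM), with 77.8 and 88.8 CPM in controls 1 and 2 and 102 and 92.2 CPM in Foxp1cKO. Snhg20 hardly varied, from 8.56 to 8.79 CPM over the 6 libraries.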
